A study of Mus musculus with 2 samples.

Results

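A set of 10 genes of fibroblast growth factor (FGF) and hepatocyte growth factor signalling were followed in mouse lung fibroblasts: the FGF ligands Fgf2, Fgf7, Fgf10 and Fgf18, the ligand Hgf, the receptors Fgfr1, Fgfr2 and Fgfr4, and the feedback inhibitors Spry1 and Spry2. They were chosen by symbol with earlier results of these data known, and all 10 were found among the 21014 gene columns of the deposited tables. They are not the whole pathway, and other genes of it, such as Fgfr3 and Fgf1, are given further below. The cells were fibroblastic stroma from lungs of C57Bl/6J mice, with 1 library for 16 weeks of high fat diet (HFD) and 1 for 16 weeks of normal chow (NC). A droplet kit of 10x Genomics that reads the 3′ end of transcripts was used, per the labels' protocols. Sex, age and how many animals were behind each library are not given in the sources used here. Since each diet had a single library, nothing was tested, and diet and library cannot be told apart.

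FGFs are secreted factors that bind receptor tyrosine kinases on the cell surface together with heparan sulphate chains. In the lung, fibroblasts make Fgf7 and Fgf10, whose receptor is the epithelial splice form of Fgfr2, and Hgf, whose receptor is Met, so both kinds of signal pass from mesenchyme to epithelium. Sprouty proteins are induced by receptor tyrosine kinase signalling and dampen it. Counts at the 3′ end do not tell the splice forms of Fgfr2 apart.

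After cells with fewer than 500 detected genes or more than 10% mitochondrial counts were left out, 6089 HFD and 8140 NC cells remained, with a median of 10045 and 7524 counts per cell. The deposited annotation divides them into Asc1 fibroblasts (3092 HFD and 3999 NC cells), Gas6 fibroblasts (1095 and 2002), Pi16 fibroblasts (796 and 1222), myofibroblasts (510 and 667) and a class labelled pericytes (596 and 250). The first 4 classes are pooled below as fibroblasts. Hhip, a myofibroblast marker, was highest in myofibroblasts, Pi16 in the Pi16 class and Slc7a10, the Asc1 transporter, in the Asc1 class. Gas6 itself did not set its class apart, at 250.3 CPM (counts per 1000000 counts) in HFD and 309 CPM in NC Gas6 fibroblasts and at 279 and 277 CPM in Pi16 fibroblasts. In the last class Acta2, a smooth muscle actin, was at 12769 CPM in HFD and 12126 CPM in NC, and the 5 smooth muscle markers summed to 27187 and 26296 CPM. The 6 pericyte markers summed to 392.7 CPM in HFD and 296.8 CPM in NC there, with 0 of 6 at 0, against 400.7 and 275.3 CPM in myofibroblasts and between 36.1 and 235 CPM over both libraries in the other fibroblast classes. That class is called here by its label only. Of 4 epithelial markers 2 were at 0 in the kept cells of both libraries (Epcam and Sftpc), of 4 endothelial 1 (Pecam1), of 4 immune 2 (Ptprc and Cd3e) and of 3 mesothelial 1 (Msln). The lists summed to 2.14 CPM in HFD and 1.47 CPM in NC for epithelial, 0.493 and 1.20 CPM for endothelial, 24.4 and 39.4 CPM for immune and 1.86 and 2.99 CPM for mesothelial markers. No class of epithelial cells was annotated, so only the sending side and the fibroblasts' own receptors could be measured. The libraries shared 16 barcodes among kept cells.

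Levels are summed counts of a class as CPM, each followed where needed by a 95% interval that covers counting error only. Since recovered counts varied more than single molecules would, intervals rest on effective counts, the count divided by 4.85 in HFD and 3.98 in NC. Levels are compared between classes and diets within a gene, not between genes. A gene counted as measured in a comparison if it had at least 50 effective counts over both libraries, and as higher or lower in HFD if the HFD over NC ratio of CPM passed 1.5-fold.

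Of the 10 genes, Hgf and Fgf18 were higher in HFD by at least 1.5-fold in the pooled fibroblasts and none was lower. Over all 13422 genes measured there, 5.45% were higher and 4.75% lower by this size. The median log2 ratio was 0.08 over the 10 genes and 0.02 over all genes. Smaller differences, under 1.5-fold, were seen in the receptors, with Fgfr4 at a ratio of 1.34, Fgfr1 at 0.813 and Fgfr2 at 0.705. The remaining ligands Fgf2, Fgf7 and Fgf10 and both Sprouty genes had ratios between 0.948 and 1.17. Across classes, Fgf18 and Fgfr2 were highest in myofibroblasts and Fgfr4 in Asc1 fibroblasts, in both libraries. Within myofibroblasts, which held most Fgf18 counts, the Fgf18 ratio was 1.47, under 1.5-fold.

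**Figure D1:**
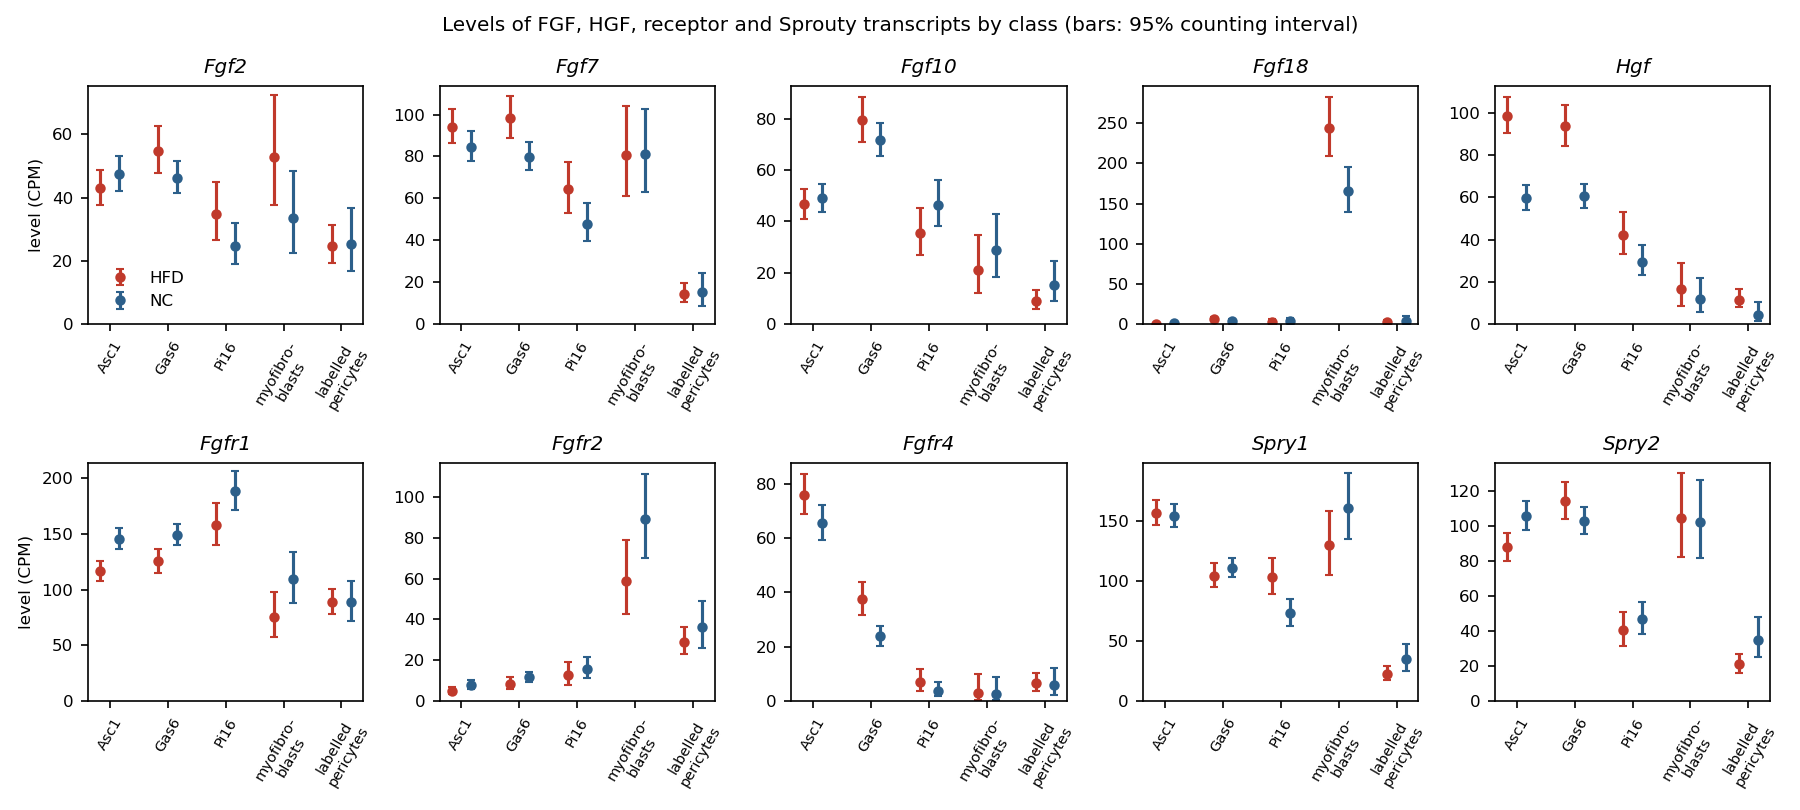
Level of each of the 10 transcripts (y axis, CPM, linear from 0) in the 5 annotated classes (x axis), HFD in red at the left of NC in blue. Points are the summed level of a class in 1 library and bars the 95% counting interval. Fgf18 stood at 244 CPM in HFD and 166 CPM in NC myofibroblasts and at 6.04 CPM or less in every other class, and Fgfr4 stepped down from Asc1 to Gas6 to the other classes.

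The promoters of 4 genes with strong differences between classes or diets are shown here, since they are the regulatory sequence nearest to these transcripts. Each runs 5′ to 3′ on the gene's strand, from 250 bases before to 50 after the start that RefSeq gives on GRCm38.p6, which is not the build of the submitters' processing notes. RefSeq promoters were found for 9 of the 10 genes, with 2 starts for Hgf, of which the first is shown. Capitals mark matches on either strand to the TATA box (TATAAA), the CCAAT box, the GC box (GGGCGG), the forkhead motif (GTAAACA), the TEAD motif (GGAATG) or an arm of the glucocorticoid receptor element (AGAACA).
Fgf18 (chr11:33147351-33147650, minus strand): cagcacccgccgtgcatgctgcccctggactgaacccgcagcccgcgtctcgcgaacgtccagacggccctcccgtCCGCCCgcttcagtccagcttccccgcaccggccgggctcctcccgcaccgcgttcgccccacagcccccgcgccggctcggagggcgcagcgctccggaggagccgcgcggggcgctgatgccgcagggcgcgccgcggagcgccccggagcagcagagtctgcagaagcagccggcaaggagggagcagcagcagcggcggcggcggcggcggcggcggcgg
Fgfr2 (chr7:130266759-130267058, minus strand): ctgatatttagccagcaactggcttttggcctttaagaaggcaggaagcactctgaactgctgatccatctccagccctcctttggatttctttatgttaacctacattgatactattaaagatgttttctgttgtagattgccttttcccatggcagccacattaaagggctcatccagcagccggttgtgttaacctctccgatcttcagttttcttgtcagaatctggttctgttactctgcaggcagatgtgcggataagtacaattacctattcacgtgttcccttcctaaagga
Fgfr4 (chr13:55152568-55152867, plus strand): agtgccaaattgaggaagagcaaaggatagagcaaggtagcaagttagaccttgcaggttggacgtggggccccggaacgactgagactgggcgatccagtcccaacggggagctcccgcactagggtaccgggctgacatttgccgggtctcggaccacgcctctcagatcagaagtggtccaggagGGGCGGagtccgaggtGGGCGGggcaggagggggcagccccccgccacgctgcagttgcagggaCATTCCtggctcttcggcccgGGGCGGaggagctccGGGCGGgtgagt
Hgf (chr5:16553245-16553544, plus strand): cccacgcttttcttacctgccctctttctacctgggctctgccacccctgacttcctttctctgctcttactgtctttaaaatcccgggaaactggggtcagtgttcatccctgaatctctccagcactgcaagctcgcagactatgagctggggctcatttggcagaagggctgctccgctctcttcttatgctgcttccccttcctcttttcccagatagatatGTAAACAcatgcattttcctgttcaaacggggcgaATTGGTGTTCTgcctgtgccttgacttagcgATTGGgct
The Fgf18 window was 78.7% G or C and that of Fgfr2 43.7%, against a median of 52.7% over 32851 mouse promoters of the same length. Fgfr4 held 4 GC boxes and 1 TEAD match. A GC box occurred in 35.7% of all promoters and a TEAD match in 14.7%. The Hgf window shown held 1 forkhead match, which Fgf10 held too and 3.65% of all promoters held. It also held 2 CCAAT matches (37.4% of all promoters) and 1 match to AGAACA (18.97%). The window of the other Hgf start, not shown, held no match to any of the 6 motifs. A TATAAA match occurred in 13.6% of all promoters and in none of the 10 found for these genes. No 2 matches overlapped. Fgfr2 held no match to any of the 6 motifs, which says only that these letters are not in this window, and a match is a description of the letters, not a site in use.

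Hgf (ENSMUSG00000028864), the ligand of the receptor Met, was higher in HFD. In the pooled fibroblasts it was at 83.6 CPM in HFD and 53.2 CPM in NC, a ratio of 1.57 (counting interval 1.44 to 1.73). A count of Hgf was found in 1298 of 5493 HFD fibroblasts (23.6%) and 1290 of 7890 NC fibroblasts (16.3%), and with every cell thinned to 2000 counts in 10.3% of HFD and 7.51% of NC fibroblasts. The intervals of the HFD and NC levels did not overlap.

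By class, Hgf was at 98.6 CPM in HFD and 59.6 CPM in NC Asc1 fibroblasts, a ratio of 1.65 (1.45 to 1.89). Gas6 fibroblasts had 93.6 CPM in HFD and 60.4 CPM in NC, a ratio of 1.55 (1.34 to 1.79). On thinned cells the Gas6 ratio was 1.40, within 1.5-fold. Pi16 fibroblasts had 42.2 CPM in HFD and 29.6 CPM in NC, and their ratio of 1.43 (1.01 to 2.01) stayed within 1.5-fold. Asc1 and Gas6 fibroblasts thus held the highest Hgf levels in both libraries and did not differ from each other beyond counting error, and both lay apart from Pi16 fibroblasts. Myofibroblasts followed with 16.6 CPM in HFD and 11.9 CPM in NC, and the labelled pericytes with 11.6 and 4.31 CPM, where Hgf was not measured by the minimum. The 10 cells with most Hgf counts held 6.21% of the HFD and 5.51% of the NC fibroblast counts, and without them the ratio was 1.56.

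Markers of the Asc1 class were also higher in HFD as a sum. Their summed level, with 0 of 6 markers at 0, was 10235 CPM in HFD and 7042 CPM in NC over the pooled fibroblasts, and 13965 and 9773 CPM within the Asc1 class. Other lists differed over the pooled fibroblasts too. Higher in HFD than in NC were the myofibroblast (1406 and 1123 CPM) and pericyte markers (98.7 and 82.2 CPM). Lower were the Pi16 (385 and 570 CPM), smooth muscle (522 and 668 CPM) and immune markers (28.5 and 40.3 CPM), and Gas6 (181 and 224 CPM). The part of these lists in the Hgf difference was not tested. With the 4 classes weighted equally the Hgf ratio was 1.55, without the Asc1 class it was 1.45, and on thinned cells it was 1.53.

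Fgf18 (ENSMUSG00000057967), an FGF needed for alveolar development, was found mainly in the myofibroblast class. Myofibroblasts had 244 CPM (209 to 282) in HFD and 166 CPM (140 to 196) in NC, a ratio of 1.47 (1.17 to 1.85) that stayed within 1.5-fold although the 2 levels did not overlap. They stood 40.3 times above the next class in HFD and 40.6 times in NC. Myofibroblasts held 81.8% of all Fgf18 counts in HFD and 74.8% in NC, while making up 8.38% and 8.19% of kept cells.

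A count of Fgf18 was found in 140 of 510 HFD myofibroblasts (27.5%) and in 137 of 667 NC myofibroblasts (20.5%). Thinned to 2000 counts per cell, the shares were 20.6% in HFD and 15.3% in NC, against 0.129% and 0.126% in Asc1 fibroblasts, which are the nearest measure of background here. The ratio of Fgf18 levels in myofibroblasts ranged between 1.20, with a stricter cell filter, and 1.85, on thinned cells. The summed level of the 6 myofibroblast markers, none at 0, was 9889.6 CPM in HFD and 7902 CPM in NC in that class. Other lists moved there too. The 4 immune markers, 2 of them at 0, summed to 140.5 CPM in HFD and 31.5 CPM in NC, and 1 HFD cell held 256 of the 272 HFD counts of the immune marker Lyz2. The 6 pericyte markers summed to 400.7 and 275.3 CPM, with Lamc3 at 0 in HFD, and the 5 smooth muscle markers, none at 0, to 2757 and 3824 CPM. The part of these lists in the Fgf18 difference was not tested.

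In the pooled fibroblasts Fgf18 was at 17.7 CPM in HFD and 11.1 CPM in NC, a ratio of 1.59 (1.30 to 1.95). With the classes weighted equally this was 1.45, under 1.5-fold. In Gas6 fibroblasts Fgf18 was at 6.04 CPM in HFD and 4.01 CPM in NC, a ratio of 1.51 (0.834 to 2.70) that passed the size with an interval that included 1. It rested on few cells, since only 14 HFD and 21 NC cells held a count. The 10 cells with most counts held 94.0% of the HFD and 71.6% of the NC counts. Without them the ratio was 0.317, in a setting that took a larger share from HFD. Asc1, Pi16 and labelled pericyte cells held too few counts for a ratio. Asc1 was the lowest class in both libraries, apart from its neighbour in NC only, and the other classes below myofibroblasts overlapped.

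Fgf10 (ENSMUSG00000021732), a ligand that guides branching of the lung epithelium, was highest in Gas6 fibroblasts, at 79.3 CPM in HFD and 71.7 CPM in NC. The next class, Asc1, had 46.6 CPM in HFD and 49.0 CPM in NC, and the intervals of Gas6 and Asc1 lay apart in both libraries. Pi16 fibroblasts had 35.3 CPM in HFD and 46.5 CPM in NC, myofibroblasts 21.1 and 28.8 CPM, and the labelled pericytes 9.08 and 15.4 CPM, with each neighbour's interval overlapping the next. Between diets Fgf10 was at 54.4 CPM in HFD and 57.0 CPM in NC pooled fibroblasts, a ratio of 0.954 (0.862 to 1.06). Its ratio was 0.952 in Asc1, 1.11 in Gas6 and 0.760 (0.547 to 1.05) in Pi16 fibroblasts, all with intervals that included 1.

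Fgf7 (ENSMUSG00000027208), the keratinocyte growth factor, was spread over the fibroblast classes. Levels were 94.2 CPM in HFD and 84.6 CPM in NC for Asc1, 98.4 and 79.9 CPM for Gas6, 80.5 and 81.1 CPM for myofibroblasts, and 64.3 and 48.0 CPM for Pi16 fibroblasts. Asc1, Gas6 and myofibroblast levels were not apart within either library. The labelled pericytes were lowest, with 14.5 CPM in HFD and 15.2 CPM in NC, apart from all others. The pooled ratio was 1.17 (1.08 to 1.27), from 90.4 CPM in HFD and 77.2 CPM in NC, against 1.23 (1.08 to 1.40) in Gas6 and 1.34 (1.02 to 1.76) in Pi16 fibroblasts. None of these reached 1.5-fold, and myofibroblasts had a ratio of 0.992 (0.688 to 1.43).

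Fgf2 (ENSMUSG00000037225), a broadly acting FGF without a classical signal peptide, varied by 2.21-fold over the HFD classes and 1.91-fold over the NC classes, the narrowest range of the 5 ligands. Its level ran between 24.7 and 54.7 CPM over the HFD classes and between 24.8 and 47.4 CPM over the NC classes, and no 2 neighbouring classes lay apart. The pooled fibroblasts had 46.3 CPM in HFD and 43.0 CPM in NC, a ratio of 1.08 (0.962 to 1.21). Myofibroblasts had 52.9 CPM in HFD and 33.6 CPM in NC, and their ratio of 1.58 passed the size, with an interval of 0.946 to 2.65. That value rests on 188 HFD and 113 NC counts, and on thinned cells it was 1.38, within 1.5-fold.

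With each cell thinned to 2000 counts, 31.04% of HFD and 27.5% of NC fibroblasts held at least 1 count of any of the 5 ligands. Gas6 fibroblasts had the highest share, 40.6% in HFD and 33.3% in NC, and the labelled pericytes the lowest, 8.89% and 8%. At least 2 ligands were found together in 4.32% of HFD and 3.53% of NC fibroblasts. Among Asc1 fibroblasts with Fgf10, 15.2% in HFD and 11.8% in NC also held Fgf7, against 10.6% and 9.38% of all Asc1 fibroblasts. In Gas6 fibroblasts with Fgf10 the shares with Fgf7 were 9.68% in HFD and 14.04% in NC, against 15.4% and 10.9% of all, so the direction was not shared by the libraries.

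**Figure D2:**
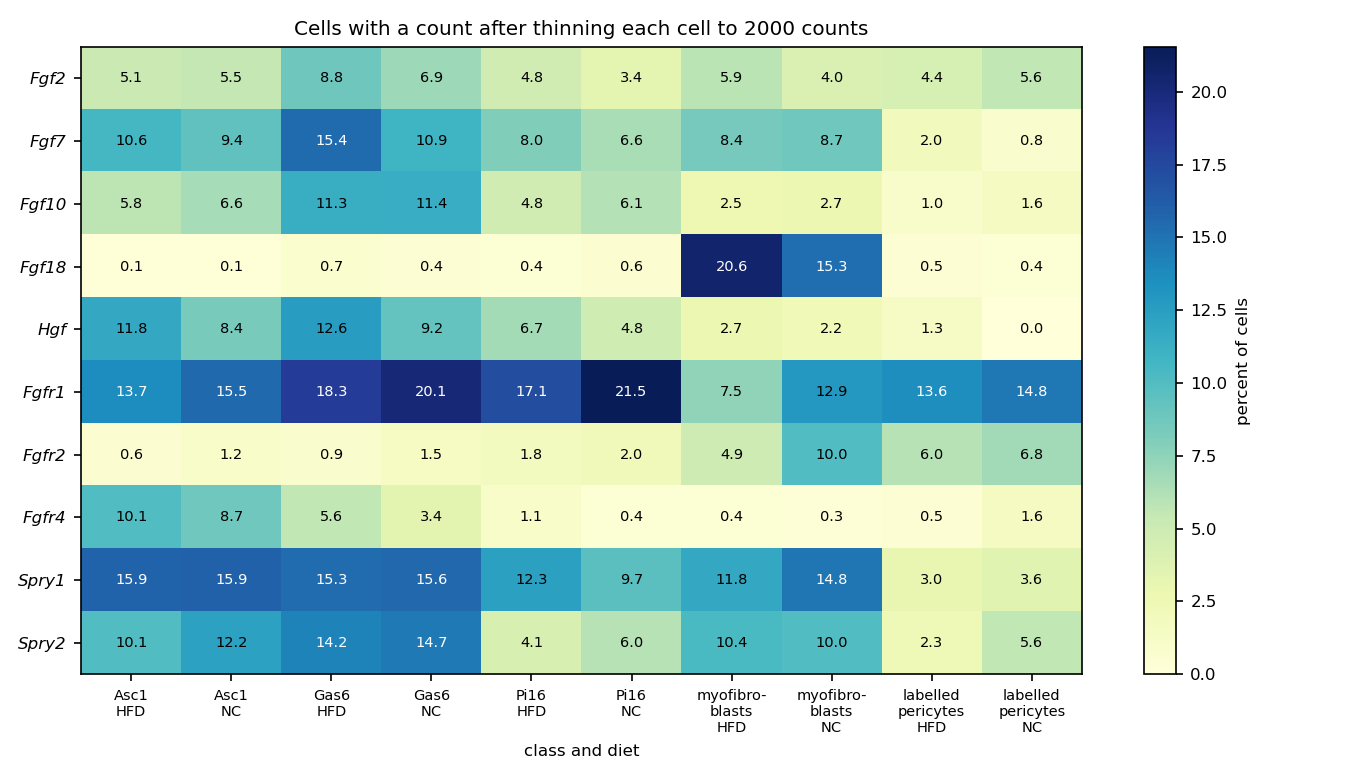
Percent of cells with at least 1 count of each transcript (rows) in each class and diet (columns), after every cell was thinned to 2000 counts, with the percent printed in each box and shown by colour. Fgf18 was found in 20.6% of HFD and 15.3% of NC myofibroblasts and in under 1% of every other class.

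Among the receptors, Fgfr1 (ENSMUSG00000031565), a receptor of mesenchymal cells for Fgf2 and others, was lower in HFD in all 4 fibroblast classes without reaching 1.5-fold. The pooled fibroblasts had 123 CPM in HFD and 151 CPM in NC, a ratio of 0.813 (0.761 to 0.867). The ratio was 0.800 in Asc1, 0.840 in Gas6, 0.839 in Pi16 and 0.690 (0.485 to 0.973) in myofibroblasts, each with an interval below 1. In the labelled pericytes it was 0.999 (0.787 to 1.28), from 88.3 CPM in HFD and 88.4 CPM in NC.

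Fgfr1 was highest in Pi16 fibroblasts, with 158 CPM in HFD and 188 CPM in NC. The next class was Gas6, with 125 CPM in HFD and 149 CPM in NC, apart from Pi16 and not from Asc1, which had 116 and 146 CPM. Myofibroblasts and labelled pericytes were lowest and did not differ beyond counting error. The whole range over classes was 2.10-fold in HFD and 2.13-fold in NC.

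Fgfr2 (ENSMUSG00000030849), whose epithelial splice form binds Fgf7 and Fgf10, was scarce in most fibroblasts and highest in myofibroblasts, at 58.8 CPM in HFD and 89.2 CPM in NC. This was 2.03 times the labelled pericytes in HFD and 2.47 times in NC, with intervals apart. The labelled pericytes had 29.0 CPM in HFD and 36.1 CPM in NC, again apart from Pi16, Gas6 and Asc1 fibroblasts, which lay between 4.70 and 12.4 CPM in HFD and between 7.68 and 15.7 CPM in NC. The ratio was below 1 in all 5 classes. It passed 1.5-fold in myofibroblasts, at 0.660 (0.443 to 0.972), and in Asc1 fibroblasts, at 0.612 (0.364 to 1.01), and was 0.706 in Gas6, 0.788 in Pi16 and 0.806 in labelled pericyte cells. The direction turned in labelled pericytes without the 10 cells with most counts, at 1.16, where these cells held 25.5% of the HFD and 48.4% of the NC counts. Pi16 reached 1.005 with the stricter cell filter. With that filter the myofibroblast ratio was 0.785, within 1.5-fold.

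In the pooled fibroblasts Fgfr2 was at 10.3 CPM in HFD and 14.6 CPM in NC, a ratio of 0.705 (0.562 to 0.880) just short of 1.5-fold. It passed that size on thinned cells (0.570), with each cell weighted equally (0.655) and without the 10 cells with most counts (0.632). The 10 cells with most counts held 19.3% of the HFD and 10.03% of the NC counts.

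Fgfr4 (ENSMUSG00000005320), a receptor of FGF signalling that in liver answers to an endocrine FGF, was highest in Asc1 fibroblasts, at 76.1 CPM in HFD and 65.6 CPM in NC. Gas6 fibroblasts had 37.4 CPM in HFD and 23.7 CPM in NC, and Pi16, myofibroblast and labelled pericyte cells 6.74 CPM or less in HFD and 5.67 CPM or less in NC. Asc1 stood 2.04 times above Gas6 in HFD and 2.77 times in NC, and both steps, from Asc1 to Gas6 and from Gas6 to the rest, lay apart in both libraries. The ratio was 1.58 (1.254 to 1.981) in Gas6 fibroblasts and 1.16 (1.01 to 1.33) in Asc1 fibroblasts. On thinned cells the Gas6 ratio was 1.475, within 1.5-fold. The pooled level was 48.5 CPM in HFD and 36.1 CPM in NC, a ratio of 1.34 (1.20 to 1.51). In Gas6 fibroblasts the summed level of the 6 Asc1 markers was also higher, 9599.9 CPM in HFD and 6646 CPM in NC, and its part in the Fgfr4 difference was not tested.

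Spry1 (ENSMUSG00000037211) and Spry2 (ENSMUSG00000022114), both inhibitors of signalling below FGF receptors, were close to equal between diets in the pooled fibroblasts. Spry1 was at 130 CPM in HFD and 125 CPM in NC, a ratio of 1.04 (0.972 to 1.11). Spry2 was at 90.9 CPM in HFD and 95.9 CPM in NC, a ratio of 0.948 (0.876 to 1.02). By class, Spry1 had a ratio of 1.41 (1.14 to 1.75) in Pi16 fibroblasts, from 103 CPM in HFD and 73.3 CPM in NC, and Spry2 one of 0.831 (0.738 to 0.936) in Asc1 fibroblasts, from 88.0 and 106 CPM. Both were lowest in the labelled pericytes. Spry1 was at 22.7 CPM in HFD and 34.5 CPM in NC, a ratio of 0.658 (0.433 to 1.01), and Spry2 at 20.7 and 34.9 CPM, a ratio of 0.593 (0.387 to 0.918). Both passed 1.5-fold downwards there as reported, and without the 10 cells with most counts neither did, at 0.809 for Spry1 and 0.765 for Spry2. The 10 cells left out were of 596 in HFD and of 250 in NC. They held 35.3% of the HFD and 47.4% of the NC Spry1 counts, and 34.7% and 49.4% of the Spry2 counts. This setting thus took a larger share from NC, which by itself raises the ratio. Spry1 also stayed within 1.5-fold with a stricter cell filter (0.795), on thinned cells (0.749) and with the 100 most abundant genes left out of the totals (0.677).

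Asc1 fibroblasts and myofibroblasts held the most Spry1 in both libraries and did not differ beyond counting error, with 157 and 130 CPM in HFD and 155 and 161 CPM in NC. Spry2 was at 114 CPM in Gas6, 104 CPM in myofibroblast and 88.0 CPM in Asc1 cells in HFD, and at 103, 102 and 106 CPM in NC. Pi16 fibroblasts lay below these 3 classes, with 40.2 CPM of Spry2 in HFD and 46.7 CPM in NC.

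**Figure D3:**
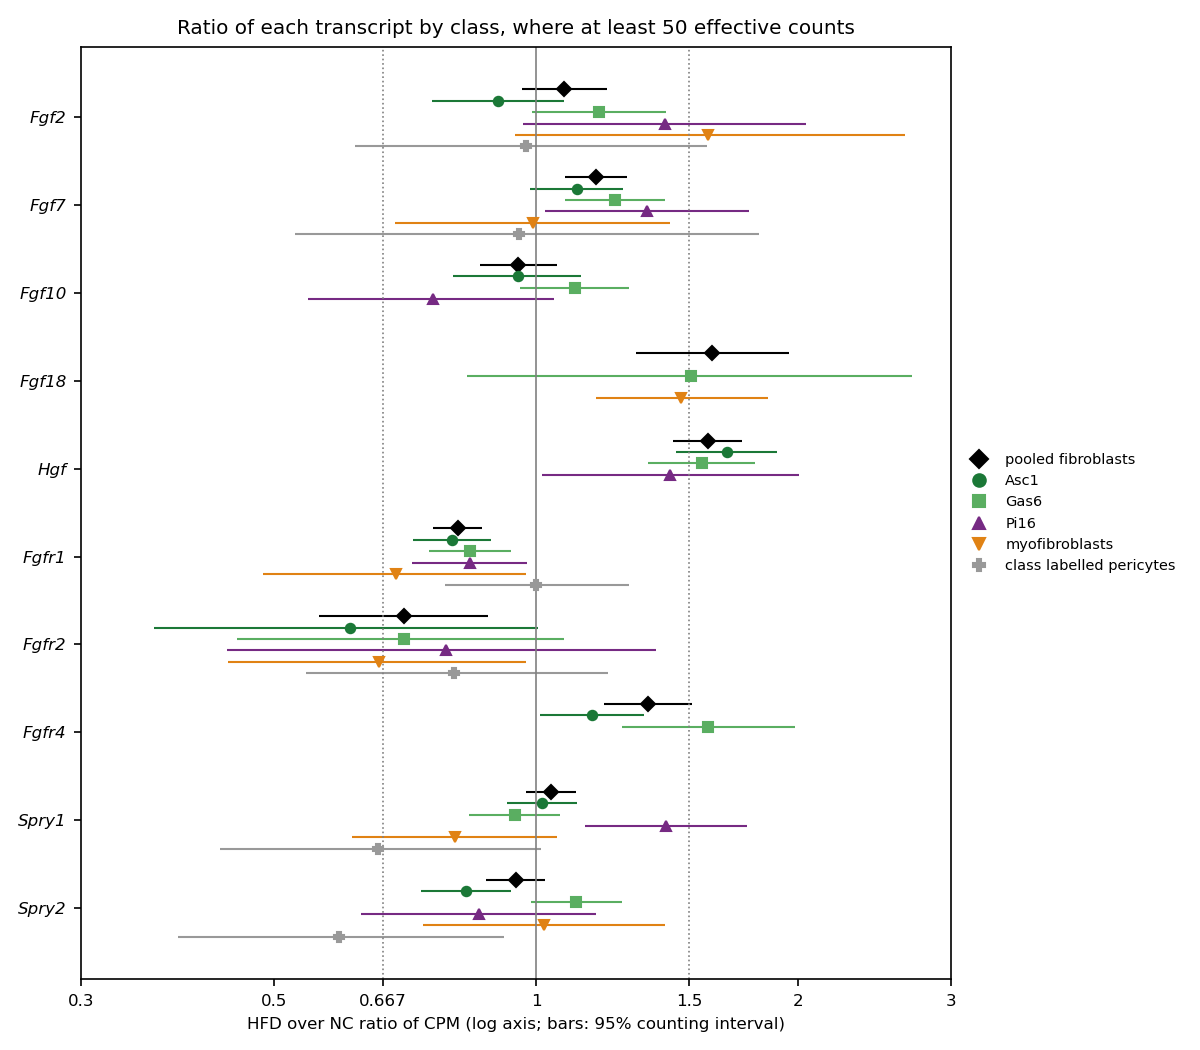
HFD over NC ratio of each transcript (x axis, log scale) in the pooled fibroblasts and in each class, where at least 50 effective counts were present, with 95% counting intervals as bars. The dotted lines mark 1.5-fold in either direction. Hgf lay at 1.43 to 1.65 in the 3 classes where it was measured and Fgfr1 at 0.690 to 0.840 in the 4 fibroblast classes.

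Counted by class, the genes past 1.5-fold were few. In Asc1 fibroblasts Hgf was higher and Fgfr2 lower among 9 genes measured, where 4.88% of all genes were higher and 5.46% lower. In Gas6 fibroblasts Fgf18, Hgf and Fgfr4 were higher and none lower among 10 measured, where 6.08% of all genes were higher and 5.91% lower. In Pi16 fibroblasts none of 8 measured passed the size, where 5.7% of all genes were higher and 5.88% lower. In myofibroblasts Fgf2 was higher and Fgfr2 lower among 7 measured, where 7.62% of all genes were higher and 7.94% lower. In the labelled pericytes Spry1 and Spry2 were lower and none higher among 6 measured, where 11.4% of all genes were higher and 6.77% lower. Fgf18, Hgf and Fgfr4 in Gas6 fibroblasts and Fgf2 and Fgfr2 in myofibroblasts did not keep their calls under every alternative given above. Spry1 and Spry2 in the labelled pericytes did not either.

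The class with the highest level was the same in both libraries for 5 of the 10 genes, Fgf10, Fgf18, Fgfr1, Fgfr2 and Fgfr4, against 53.8% of 13845 genes, a share close to the background. For Fgf18, Fgfr2 and Fgfr4 that class also stood at least 2-fold above the next in both libraries, as it did for 5.41% of all genes. The highest class of the other 5 genes differed between libraries, and in each library its interval overlapped that of the next class.

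Within the Asc1 class the deposited annotation sets apart a subset named SNAT2, with 245 HFD and 359 NC cells kept, of 810 and 989 deposited. In it Fgfr1 was at 233 CPM in HFD and 145 CPM in NC, a ratio of 1.61 (1.05 to 2.47), while the other Asc1 fibroblasts had 111 and 146 CPM, a ratio of 0.766 (0.689 to 0.851). Without any cell filter the SNAT2 ratio of Fgfr1 was 1.32 (0.968 to 1.80), a setting chosen after seeing the data. Hgf was higher in both, at 184 CPM in HFD and 96.6 CPM in NC in the SNAT2 cells, a ratio of 1.91 (1.15 to 3.18), and at a ratio of 1.64 (1.43 to 1.89) in the others. The SNAT2 ratio of Hgf was 1.53 (1.05 to 2.23) without any cell filter and 2.04 (0.994 to 4.31) without the cells with most counts, both settings chosen after seeing the data. SNAT2 cells were shallow, with a median of 4009 counts in HFD and 3037 in NC, against 8747 and 6631 in the other Asc1 fibroblasts, and the part of depth in the Fgfr1 difference was not tested.

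Of 75 other genes of the pathway, listed with earlier results of these data known, 61 were in the tables and 46 were measured in the pooled fibroblasts. By 1.5-fold, 2 were higher and 4 lower, against 5.45% and 4.75% of all genes measured there, and the median log2 ratio was -0.03 over the 46 genes and 0.02 over all. Of the genes of HGF activation and its inhibitors, Plaur, the urokinase receptor, was at 4.88 CPM in HFD and 12.8 CPM in NC, a ratio of 0.381 (0.280 to 0.511). Plat, the tissue plasminogen activator, was at 120 CPM in HFD and 196 CPM in NC, a ratio of 0.611 (0.574 to 0.651). Spint2, an inhibitor of HGF activating proteases, had a ratio of 1.02 and stayed within 1.5-fold. Plau, St14, Hpn and Spint1 had too few counts.

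Among genes that bind FGFs or build heparan sulphate, 18 of 20 were measured and 1 was lower. This was Sdc4, a heparan sulphate carrying syndecan, at 323 CPM in HFD and 561 CPM in NC, a ratio of 0.576 (0.555 to 0.599). The others lay within 1.5-fold, among them Gpc3 at a ratio of 1.16, Sdc2 at 0.979 and the sulphatase Sulf1 at 0.917. By class Sulf1 differed in direction, at 0.596 (0.413 to 0.849) in Asc1 and 1.39 (1.12 to 1.72) in Pi16 fibroblasts. Of the other FGF ligands, Fgf1 was higher, at 8.11 CPM in HFD and 4.52 CPM in NC, a ratio of 1.80 (1.31 to 2.46), and Fgf11 was within 1.5-fold. The other 6 in the tables were below the minimum.

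All 8 adaptors that carry the signal from the receptors, such as Frs2 (0.907) and Grb2 (1.20), were within 1.5-fold. Among 11 measured feedback genes and targets, Dusp4, a phosphatase of MAP kinases, was higher, at 4.36 CPM in HFD and 2.58 CPM in NC, a ratio of 1.69 (1.11 to 2.60). Spred3, a relative of the Sproutys, was lower, at 3.34 CPM in HFD and 5.16 CPM in NC, a ratio of 0.647 (0.433 to 0.954). Dusp6 and Spry4, both induced by FGF signalling, had ratios of 0.978 and 0.946, Etv1 one of 1.43 (1.29 to 1.58) and Etv5 one of 1.29 (0.940 to 1.76). By class, Etv1 passed 1.5-fold upwards in 4 of 5, between 1.55 in Gas6 fibroblasts and 1.96 in myofibroblasts, and stayed within it in Asc1 fibroblasts.

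Of the other receptors, 3 of 4 were measured and none passed the size, with Fgfr3 at 91.4 CPM in HFD and 86.3 CPM in NC. Met, the receptor of Hgf, held 80 counts in 21 HFD fibroblasts and 101 counts in 35 NC fibroblasts and was not measured by the minimum. Myofibroblasts held 54.3% of all Met counts in HFD and 73.1% in NC, and there Met was at 12.4 CPM (5.68 to 23.5) in HFD and 22.6 CPM (13.6 to 35.2) in NC.

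**Figure D4:**
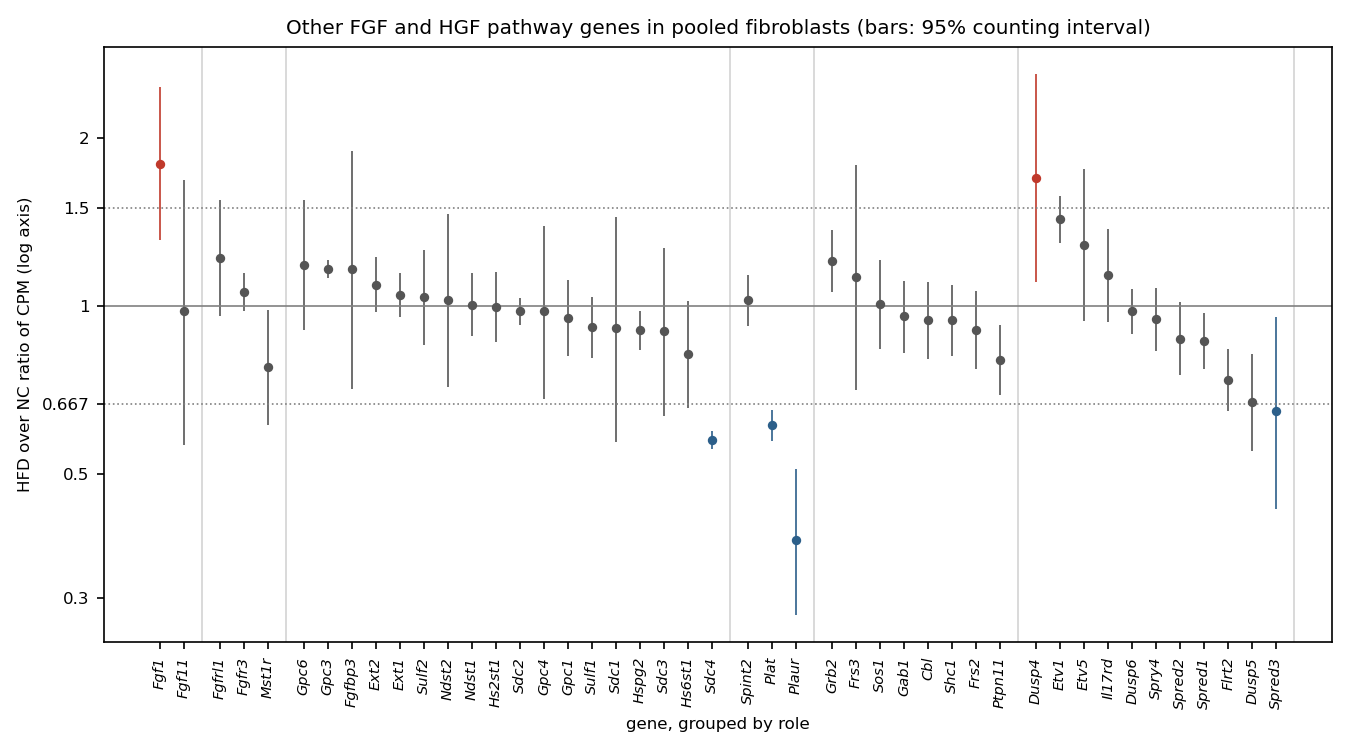
HFD over NC ratio (y axis, log scale) of measured other genes of the pathway in the pooled fibroblasts, grouped from left to right as FGF ligands, receptors, binding and heparan sulphate genes, HGF activation, adaptors, and feedback genes and targets. Bars are 95% counting intervals and dotted lines mark 1.5-fold. Red marks the 2 genes past that size upwards, Fgf1 and Dusp4, and blue the 4 downwards, Sdc4, Plat, Plaur and Spred3.

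The genes whose pattern was most like each of the 10 were sought over the 10 sums of class and library, by Pearson's r of log2(CPM + 1) among 4073 candidate genes. The points share 2 libraries and their depth, so r is a description. Among the ligands, Fgf18 was most like Csgalnact1 (r = 0.988), Hhip and Ccdc50, and Fgf10 like Gm3788 (0.977), Igf2r and the unnamed ENSMUSG00000117310. Fgf7 was most like Zfp36 (0.983), Spty2d1 and Tmem159, Fgf2 like Tcf25 (0.940), Spag9 and Mzt2, and Hgf like Pcdhgc4 (0.974), Gfra2 and Slc1a3. Of the receptors, Fgfr1 was most like Stt3a (0.972), Sec22b and C1rb, Fgfr2 like Rap1a (0.983), Gja1 and Ngb, and Fgfr4 like Specc1l (0.992), Fhod1 and Phactr1. Spry1 was most like Junb (0.979), 4632427E13Rik and Mgst1, and Spry2 like Sowahc (0.982), Nfkbiz and Tor1aip1. Between the 10 genes themselves, r was highest for Fgf7 with Spry1, at 0.960, and lowest for Fgfr2 with Fgfr4, at -0.867.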

How the data were processed

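Counts were measured in 1 HFD and 1 NC library and grouped by the labels' diet. Per the submitters' processing notes, STAR and mm39 were used; versions and molecule counting are not given in the sources used here. The deposited values are log2(CPM + 1) per cell, as found from the values. The deposited total per cell is an estimated count, and the deposited mitochondrial share is a percent, per the file headers. Unlogged values times each cell's total gave counts, which were rounded; within 0.01 of a whole number lay 98.8% of nonzero HFD and 98.96% of NC values. Totals had decimals in 7.24% (HFD) and 5.59% (NC) of the cells.

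A cell was kept if it had 500 genes or more and no more than 10% mitochondrial counts; 12.7% (HFD) and 9.71% (NC) of cells failed this. Doublets were not sought or removed. Classes come from the deposited annotation. Symbols were given by a gene name table to 20180 of 21014 identifiers (96.03%). The variance factors 4.85 (HFD) and 3.98 (NC) are medians, over 6024 and 6340 genes found in 0.1 to 1% of cells, of summed squared counts over summed counts. Ratio intervals are exact conditional Poisson, level intervals exact Poisson and share intervals exact Clopper-Pearson, all at 95% and for counting error only; cells are not replicates and there was no test. Thinning drew 2000 counts per cell without replacement and dropped 0.0493% (HFD) and 0.307% (NC) of kept cells.

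The 10 genes, the pathway list and the markers were chosen with earlier results of these data known. Other pathway genes were named if past 1.5-fold in the pooled fibroblasts, and genes of like pattern were the 3 nearest by r with at least 50 CPM in 1 of the sums and 100 effective counts for the gene they resemble; the other pathway genes named, within 1.5-fold or not measured, were picked after their values were seen as examples of their group. A gene of the pathway list is counted in its totals and not reported here by itself. Alternatives changed the cell filter, library scaling, weighting of cells and classes, depth, variance factor, fold and minimum. Ratios were computed in Python 3.11.15 with numpy 2.4.6, scipy 1.17.1 and pandas 2.3.3. The ratio and its interval were checked on simulated counts drawn from the Poisson model that the interval assumes. That check cannot judge the variance factors, and the other steps were not simulated.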

Additional observations from a re-analysis of the deposited data

Results flagged for a closer look

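Fgfr1, an FGF receptor of mesenchymal cells, had HFD over NC ratios on opposite sides of 1 in different cells. In the SNAT2 subset of the Asc1 class the ratio was 1.61, against 0.766 in the other Asc1 fibroblasts, 0.840 in Gas6 fibroblasts, 0.839 in Pi16 fibroblasts and 0.690 in myofibroblasts. These values are listed because each counting interval excluded 1 and the directions were opposite. With 1 library per diet the difference between cell groups was not tested. Without the 10 cells with most Fgfr1 counts in each library the SNAT2 ratio was 1.65 (0.965 to 2.84), a setting chosen after seeing the data.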

How the results depend on the processing

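There were 440 alternative values for 50 ratios of the 10 genes. Of these, 421 stayed within the interval reported, 18 moved out of it and 1 was counted as reversed. This was Fgf18 in Gas6 fibroblasts at 0.317 without the 10 cells with most counts, where 14 HFD and 21 NC cells held a count. Only a ratio past 1.5-fold as reported could count as reversed. Ratios nearer to 1 changed sides of 1 more often. Fgfr1 in labelled pericytes did so in 6 of 8 alternatives, Fgf7 there in 5 of 8 and Spry1 in the pooled fibroblasts in 2 of 12. The setting with each gene's own variance factor changes the interval and leaves the ratio as it is. So 1 of the values for each of the 50 ratios could only stay. In the pooled fibroblasts Hgf ranged between 1.40 and 1.70, Fgf18 between 1.40 and 1.91, Fgfr1 between 0.791 and 0.852, Fgfr2 between 0.570 and 0.864 and Fgfr4 between 1.19 and 1.47. Of the 10 genes, 2 were higher in the setting reported, 1 with classes weighted equally (Hgf) or without the Asc1 class (Fgf18), and 0 with the labelled pericytes pooled in or at 2-fold. None was lower in the setting reported, and 1, Fgfr2, was lower with cells weighted equally, on thinned cells or without the 10 cells with most counts; at the smaller of the other folds tried 3 were higher, with Fgfr4 added, and 1 lower. Of the other pathway genes, 2 were higher in the setting reported, 1 with cells weighted equally or a minimum of 100 effective counts, 0 on thinned cells or at 2-fold, and 4 at the smaller fold. The 4 lower became 8 at the smaller fold and 1 at 2-fold. Over all 13422 genes, 2288 were higher and 1799 lower at the smaller fold, and 114 (0.849%) and 156 (1.16%) at 2-fold. The number of the 10 genes with the same highest class in both libraries was 5 to 7 over its alternatives. The cause of these moves was not tested. With each gene's own variance factor the pooled intervals were 1.41 to 1.76 for Hgf and 1.21 to 2.09 for Fgf18. Fgf18, Fgfr4, Hgf and Fgf10 fell under the minimum of 50 effective counts in 2 or more classes. No paired analysis was possible because each diet had 1 library and the labels give no replicate numbers.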
